A study of Mus musculus with 12 samples.

Results

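The transcripts described here encode the surface receptors that define T and B lymphocytes: the CD3 chains (Cd3e, Cd3d, Cd3g), the coreceptors CD4 and CD8 (Cd4, Cd8a, Cd8b1), the signalling chains of the B cell receptor (Cd79a, Cd79b) and the heavy chain of IgM (Ighm). Every non-control probe that the array files name for 1 of these 9 genes was taken, which gave 11 probes on 29 spots for 8 genes, out of 39429 probes for 29608 gene names in all. No probe carried the name Ighm. A probe whose description names the heavy constant mu region was found after the data were seen and is reported beside the others, outside that rule. RNA of whole cortex from 12 adult female mice was measured on 6 Agilent arrays, each read in the dyes Cy3 and Cy5 and holding 2 mice of 1 group. The 4 MRL/lpr mice carry a loss-of-function mutation of Fas on the MRL background, the lpr allele, and develop lupus-like disease. The 4 Fn14ko mice (Fn14koMRL in the labels) carry the same lpr allele and also lack Fn14, the receptor for the cytokine TWEAK, which the gene Tnfrsf12a encodes. The 4 MRL/+ mice (MRL/MpJ) have neither change and served as controls. MRL/lpr and Fn14ko were bred together as littermates, while MRL/+ was purchased from another source, so that origin and genotype cannot be told apart in the comparisons with MRL/+. Fn14 was absent from all cells of the Fn14ko mice and not from brain cells alone.

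T cells recognise antigen through a receptor that reaches the surface only together with the CD3 chains, and CD4 or CD8 marks the main T cell subsets. B cells carry a surface immunoglobulin coupled to CD79a and CD79b, and plasma cells keep the immunoglobulin transcripts while they lose much of the surface complex. The lpr allele is known for a large accumulation of T cells in lymphoid organs that bear neither CD4 nor CD8. The healthy cortex holds few lymphocytes, and its vessels, meninges and choroid plexus are the usual places where they are found. The question put to these probes was whether lymphocyte transcripts are measurable in cortex and whether they differ between the groups. In whole tissue, fewer lymphocytes and less RNA per lymphocyte cannot be told apart.

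Some of these genes have probes at different places of the transcript, and the sequences show which stretch each probe reads. The last 30 bases of the probes on which the results turn are given 5′ to 3′, with the letters AATAAA, the hexamer of the polyadenylation signal, in capitals where they occur.

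Cd4, 3′ end: acagaaaAATAAAggctataAATAAAatgc

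Cd4, second probe: gcagtgtctactgagtgaaggtgataaggt

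Cd3e: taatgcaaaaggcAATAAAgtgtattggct

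Cd79a, 3′ end: gtgatAATAAAtccttcccaaagcaaaaaa

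Cd79a, upstream: gtacttacctccgcgtgcgcaatccagtcc

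Cd8b1: ctctcgtggcttatatatttcttctctcac

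Cd79b: agaacacactggcttcaagaggagtctagg

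Cd3d: agatacccagtacagccgtcttggagggaa

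The hexamer was searched in all 60 bases of each probe on the printed strand, where 3 of the 11 probes held it against 12.6% of all 39429 probes, and its reverse complement TTTATT was in none of the 11 (4.03% of all probes). The 3 probes with the hexamer were also the 3 that passed the filter on dim spots. In mm9 coordinates from the array files, the 3′ probe of Cd4 lies on the minus strand at chr6:124814711-124814770 and the second probe at chr6:124817706-124817765. The probe of Cd3e lies at chr9:44806828-44806887 on the minus strand, and that of Cd3d on the plus strand of the same chromosome within 44794171 to 44794402, a stretch of 232 bases that a probe of 60 bases can only cover across a splice junction. The 3′ probe of Cd79a lies at chr7:25686823-25686882, and the upstream probe spans 258 bases from 25684357 to 25684614, also across a junction. Cd8b1 was measured at chr6:71287231-71287290 on the plus strand and Cd79b at chr11:106172780-106172839 on the minus strand.

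Replicates 1 and 3 of each group were labelled with Cy3 and replicates 2 and 4 with Cy5, and each slide held 1 group, so that slide and group cannot be told apart. Both Cy5 channels of MRL/+ stood apart: 34.2% and 20.9% of all probes were well above background there, against 55.5% to 69.2% in the other 10 mice. The software's background was 208 and 180 in these channels, against 33.3 to 83.8 elsewhere. A dim transcript could therefore pass the detection mark in only 2 of the 4 MRL/+ mice, and the values of the Cy3 mice are given beside the main results that involve MRL/+. As a check of the labels, the signal of Tnfrsf12a in units of the channel median was 1.86, 1.57, 1.90 and 1.38 in MRL/lpr, while the Fn14ko mice had 0.739, 0.777, 0.604 and 0.655 (log2 difference 1.27, limma adjusted p = 0.00287). The MRL/+ mice had 1.02, 1.18, 0.943 and 1.28, a difference of -0.67 for Fn14ko against them (limma adjusted p = 0.104). The Tnfrsf12a probe was still well above background in 4 of 4 Fn14ko mice, and whether it lies in the deleted part of the gene is not known here. The signal of Fas differed by -1.14 between MRL/lpr and MRL/+ (limma adjusted p = 0.10).

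By the mark used here, most lymphocyte surface probes were not detected in the cortex of MRL/lpr and MRL/+ mice, while Fn14ko mice had 6 to 8 of the 11 detected. A probe was counted as detected when more than 0.5 of its spots carried the software's mark "well above background". Of the 11 probes, 3, 3, 5 and 3 were detected in the 4 MRL/lpr mice, 6, 6, 8 and 6 in the Fn14ko mice, and 4, 2, 4 and 1 in the MRL/+ mice. The mean share of the 11 probes was 59.1% ± 9.09 per Fn14ko mouse, 31.8% ± 9.09 per MRL/lpr mouse and 25.0% ± 13.6 per MRL/+ mouse (SD, n = 4 each). Each Fn14ko mouse had more detected probes than each mouse of the other groups, although the share of all probes detected was similar in Fn14ko (56.1% to 66.6%) and MRL/lpr (55.5% to 69.2%). The separation depended on the mark. By the software's mark for positive and significant signal, 81.8%, 45.5%, 72.7% and 63.6% were detected in MRL/lpr. The Fn14ko mice then had 81.8%, 54.5%, 90.9% and 90.9%, and the groups overlapped. Nor did the mark follow brightness alone. Cd79b had it at 1.48 times the software's background in Fn14ko replicate 2 and not at 1.90 times in MRL/lpr replicate 1. In Cy3 mice alone the counts were 3 and 5 in MRL/lpr, 6 and 8 in Fn14ko, and 4 and 4 in MRL/+.

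**Figure D1:**
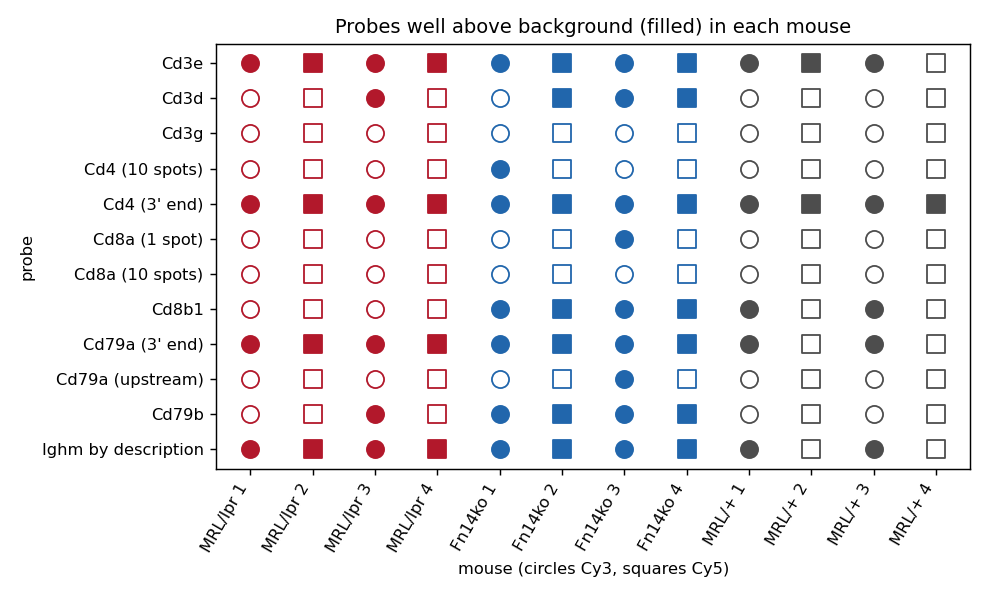
Detection of each lymphocyte probe (rows) in each of the 12 mice (columns), filled where the probe was well above background, circles for Cy3 and squares for Cy5. The 3′ probe of Cd4 is filled in all 12 mice and Cd3g in none, while Cd8b1 and Cd79b are filled in all 4 Fn14ko mice.

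Among the CD3 chains, Cd3e, which encodes the epsilon chain, was detected in 11 of 12 mice, Cd3d in 4 and Cd3g in 0. The foreground of Cd3e was 16.8, 6.04, 16.0 and 6.24 times the software's background in MRL/lpr, 10.4, 4.93, 12.7 and 4.51 times in Fn14ko, and 14.6, 1.67, 10.2 and 1.12 times in MRL/+. For comparison, the median dark control spot lay between 0.808 and 1.12 times this background over the 12 mice. The Cd3e spot was thus far above the dark level in all mice except the Cy5 mice of MRL/+. Cd3d, the delta chain, reached 2.01, 1.41, 2.00 and 1.58 times the background in MRL/lpr and 1.43, 1.58, 2.41 and 4.61 times in Fn14ko. In MRL/+ it lay at 1.10, 0.936, 1.03 and 0.877 times, the dark level. Every mouse of both lpr groups was above every MRL/+ mouse on this scale. Over all 39429 probes, MRL/lpr lay wholly above MRL/+ in brightness for 4.85% and Fn14ko for 0.743%. After background correction and scaling the groups of Cd3d overlapped, and its mean was higher in MRL/+, whose values were at the dark level and have no order. Detection differed from mouse to mouse, with 1 of 4 MRL/lpr, 3 of 4 Fn14ko and 0 of 4 MRL/+ mice. The fit over all probes did not call Cd3d between Fn14ko and MRL/+ (limma adjusted p = 0.573), and the lower bound of its fold lay under 1 over all mice and at 1.11 in Cy3 mice. Cd3g, the gamma chain, stayed between 0.453 and 1.27 times the background in all 12 mice.

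Among the coreceptor genes, Cd4 was detected in every mouse on its 3′ probe and in 1 mouse on its second probe. The 3′ probe lay at 180, 54.0, 181 and 102 times the background in MRL/lpr, 182, 60.6, 120 and 45.1 times in Fn14ko, and 160, 24.0, 131 and 8.93 times in MRL/+. The second Cd4 probe, printed on 10 spots further upstream, lay between 0.81 and 2.37 times the background and was detected in Fn14ko replicate 1 alone, there on 10 of 10 spots. In RefSeq's annotation of GRCm38 the protein-coding gene next to Cd4 on its 3′ side is Gpr162, an orphan receptor gene, whose probe was detected in 12 of 12 mice. Whether the bright probe measures Cd4 transcripts of lymphocytes was not tested. Cd8a, the alpha chain of CD8, was near the dark level on both of its probes, between 0.543 and 1.52 times the background on the probe with 10 spots and between 0.474 and 1.79 times on the other. It was detected in 1 of 12 mice on the latter, Fn14ko replicate 3, and in 0 on the former.

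Cd8b1, the beta chain of CD8, was detected in every Fn14ko mouse and in no MRL/lpr mouse. Its spot was 1.66, 1.15, 1.36 and 1.23 times the background in MRL/lpr and 6.46, 3.86, 4.00 and 4.16 times in Fn14ko. In MRL/+ it was 3.67 and 2.24 times in the Cy3 mice and 0.817 and 0.532 times in the Cy5 mice. All 4 Fn14ko mice lay above all 4 MRL/lpr mice, as for 0.591% of all probes, and the Cy3 mice of MRL/+ lay above both Cy3 mice of MRL/lpr. It was detected in 0 of 4 MRL/lpr, 4 of 4 Fn14ko and 2 of 4 MRL/+ mice. After loess and Aquantile scaling, Cd8b1 was at least 2.26-fold higher in Fn14ko than in MRL/lpr by group means. For this bound, each MRL/lpr value below the lowest detected signal of its channel was raised to that signal. The bound carries no spread between mice. With Cy3 mice alone the bound against MRL/lpr was 2.00-fold for Fn14ko and 1.58-fold for MRL/+. A probe detected in all 4 Fn14ko and in 0 of 4 MRL/lpr mice was rare, 0.208% of the 39429 probes, and Cd8b1 was the only one of the 11. The limma fit over all 38661 unmarked probes gave Cd8b1 an adjusted p of 0.288 for MRL/lpr against Fn14ko and of 0.13 against MRL/+, and neither passed the threshold of 0.05. No difference is given for these comparisons, since MRL/lpr was not well above background in any mouse. Cd8b1 passed under 6 and 7 of 34 alternatives. Among them was the background that the scanner software used in place of the local one, added after the data were seen (limma adjusted p = 0.00141 and 0.00435). With the replicate block it passed too (limma adjusted p = 0.0285 and 0.0145), in a fit that called 3.04% and 49.4% of all probes. For MRL/+ it also passed without MRL/+ replicate 3 (limma adjusted p = 0.0351), where 49.0% of all probes were called. For the other alternatives this share is not given, so that these passes are not read as a result about the gene. Cd8b1 did not pass in Cy3 mice alone with either background (limma adjusted p = 0.793 and 0.64 with the local one, 0.084 and 0.136 with the software's). Between Fn14ko and MRL/+, where 2 of 4 MRL/+ mice measured it, the log2 difference of Cd8b1 was -0.03 (-1.15 to 1.09, limma adjusted p = 0.966), and in Cy3 mice it was 0.10. The -0.03 includes the Cy5 mice of MRL/+, whose spots were at or below the dark level and have no order. In brightness all 4 Fn14ko mice lay above all 4 MRL/+ mice, as for 0.743% of all probes.

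**Figure D2:**
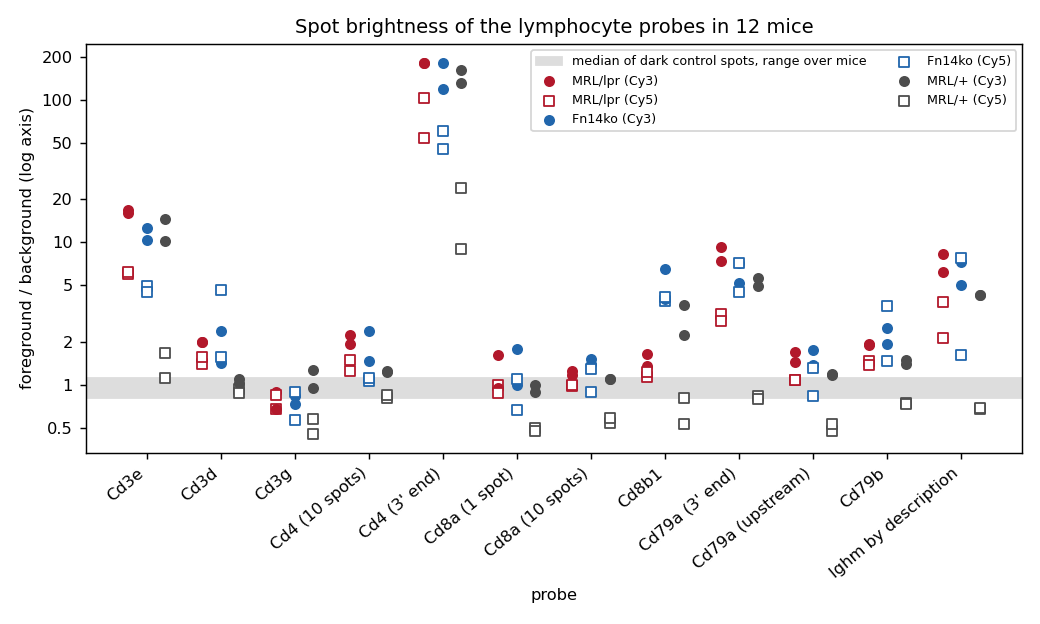
Mean foreground of each lymphocyte probe over the software's background (log axis) in the 12 mice, with filled circles for Cy3, open squares for Cy5 and a grey band for the range of the median dark control spot, 0.808 to 1.12. Cd3g, Cd8a and the upstream Cd79a probe lie in or near the band, the 3′ probe of Cd4 lies above it in all 12 mice, and the Cd8b1 points of Fn14ko lie above those of MRL/lpr.

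Of the B cell receptor chains, Cd79a was detected on its 3′ probe in 4 of 4 MRL/lpr, 4 of 4 Fn14ko and 2 of 4 MRL/+ mice. Its brightness was 9.35, 3.12, 7.38 and 2.82 times the background in MRL/lpr, 5.15, 4.45, 7.19 and 7.14 times in Fn14ko, and 5.65, 0.834, 4.98 and 0.801 times in MRL/+. The upstream Cd79a probe did not follow, with 0.477 to 1.77 times the background and detection in 1 mouse, Fn14ko replicate 3. Cd79b, the partner chain, had 1.90, 1.48, 1.92 and 1.38 times the background in MRL/lpr, 1.95, 1.48, 2.50 and 3.59 times in Fn14ko, and 1.39, 0.744, 1.49 and 0.74 times in MRL/+. Detection was found in each Fn14ko mouse, in MRL/lpr replicate 3 and in no MRL/+ mouse, though the brightness of Fn14ko and MRL/lpr overlapped and that of the Cy3 mice of MRL/+ was close to both. Over all probes, 0.134% were detected in all 4 Fn14ko and in 0 of 4 MRL/+ mice, and Cd79b was the only such probe of the 11. The bound of its fold was under 1 over all mice and 1.11 in the Cy3 mice, and limma gave an adjusted p of 0.481. None of the 11 probes was detected in all 4 MRL/lpr mice and in 0 of 4 mice of another group, as 1.17% of all probes were against MRL/+ and 1.06% against Fn14ko. The probe described as the IgM heavy constant region (chr12:114659630-114659689, minus strand, 10 spots) had 6.19, 2.14, 8.24 and 3.81 times the background in MRL/lpr, 5.05, 1.63, 7.28 and 7.74 times in Fn14ko and 4.27, 0.682, 4.25 and 0.692 times in MRL/+. It was detected in all mice except the Cy5 mice of MRL/+, and its last bases are these.

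Heavy constant mu, by description: taacaggaaggaatttgtgcgtactgtgac

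Of the 8 genes with a probe of their name, 3 passed the filter on dim spots and could be compared on a common scale, each by a single 3′ probe: Cd3e, Cd4 and Cd79a. On that scale the signal is background-corrected and divided by the median spot of the channel. In the Cy5 channels of MRL/+ the median dark control spot lay at 6.12 and 6.31 times the local background. In the other channels it lay at 1.13 to 2.65 times. The filter thus let spots at the dark level pass in the Cy5 channels of MRL/+. The scale uses the same local background, so that dim genes can read high in these mice. None of the 3 was past the limma threshold in any comparison, where 14.4% of the 17302 quantified genes were called between MRL/lpr and MRL/+, 0.954% between Fn14ko and MRL/+ and 4.57% between MRL/lpr and Fn14ko. At an unadjusted p under 0.05, limma gave 0, 1 and 1 of the 3 genes in the same order, against 34.7%, 21.9% and 18.6% of all genes. The median log2 difference of the 3 genes was -0.27, -0.49 and 0.29, beside -0.10, -0.10 and -0.07 over all genes. The heavy constant mu probe, taken by its description, also passed the filter. The immunoglobulin heavy constant mu signal differed by -0.57 between MRL/lpr and MRL/+, by -0.18 between Fn14ko and MRL/+ and by -0.39 between MRL/lpr and Fn14ko (limma adjusted p = 0.278, 0.76 and 0.659).

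The signal of Cd3e was 0.547, 0.725, 0.513 and 0.636 in MRL/lpr, 0.514, 0.618, 0.409 and 0.444 in Fn14ko, and 0.693, 0.964, 0.470 and 0.870 in MRL/+. The groups overlapped, and the highest values were those of the Cy5 mice of MRL/+, whose spots were close to the dark level. Cd3e differed by -0.56 between Fn14ko and MRL/+ (95% interval -1.01 to -0.11, limma adjusted p = 0.171; exact permutation p = 0.0857) and by -0.27 between MRL/lpr and MRL/+ (-0.72 to 0.18, limma adjusted p = 0.357). With Cy3 mice alone these were -0.32 and -0.11 (limma adjusted p = 0.951 and 0.854). The first passed the threshold with 4 other settings, among them plain subtraction of the local background (-0.65, limma adjusted p = 0.0222) and the fit without MRL/+ replicate 3 (-0.71, adjusted p = 0.0469). The share of all genes called with these settings is not given.

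Cd4 had signals of 7.12, 7.52, 6.73 and 9.87 in MRL/lpr, 5.97, 6.22, 3.88 and 4.32 in Fn14ko, and 5.04, 11.9, 5.81 and 7.07 in MRL/+. All 4 MRL/lpr mice were above all 4 Fn14ko mice, while MRL/+ overlapped both. The log2 difference between MRL/lpr and Fn14ko was 0.63 (0.04 to 1.22, limma adjusted p = 0.239), with an exact permutation p of 0.0286, the smallest that 4 mice against 4 allow. Groups that do not overlap, with MRL/lpr higher, were found for 8.91% of all genes in this comparison. With Cy3 mice alone the difference was 0.52 (limma adjusted p = 0.378). Against MRL/+, Cd4 differed by 0.13 in MRL/lpr (-0.46 to 0.73) and by -0.49 in Fn14ko (-1.09 to 0.10), with limma adjusted p = 0.746 and 0.281, and Cy3 mice alone gave 0.36 and -0.17. The signal of the neighbouring Gpr162 was 14.2 to 21.9 in MRL/lpr, 13.5 to 20.8 in Fn14ko and 11.6 to 21.1 in MRL/+.

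Cd79a had 0.327, 0.357, 0.256 and 0.307 in MRL/lpr, 0.350, 0.533, 0.264 and 0.618 in Fn14ko, and 0.440, 0.600, 0.274 and 0.594 in MRL/+. The ranges overlapped in all comparisons, and the MRL/+ values of 0.600 and 0.594 came from spots below the software's background. Cd79a differed by -0.56 between MRL/lpr and MRL/+ (-1.16 to 0.05, limma adjusted p = 0.172) and by -0.43 between MRL/lpr and Fn14ko (-1.04 to 0.18, adjusted p = 0.458). The difference between Fn14ko and MRL/+ was -0.12 (-0.73 to 0.48, limma adjusted p = 0.785). In Cy3 mice alone the 3 differences were -0.26, -0.07 and -0.19.

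**Figure D3:**
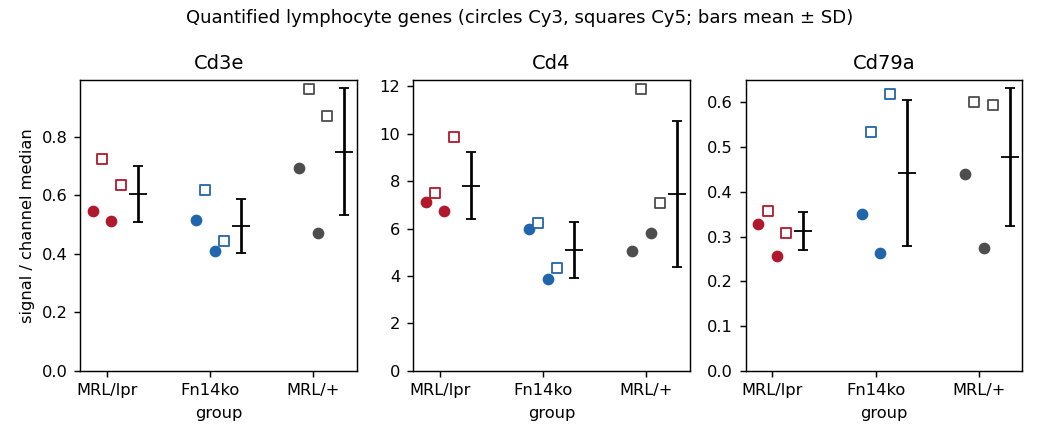
Signal of Cd3e, Cd4 and Cd79a in each mouse, in units of the channel median on axes that start at 0, with circles for Cy3, squares for Cy5 and bars for mean ± SD (n = 4 mice each). The groups overlap except for Cd4 between MRL/lpr and Fn14ko, and the Cy5 mice of MRL/+ lie high in Cd3e and Cd79a.

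In the fit over all 38661 unmarked probes, however dim, 0 of the 11 lymphocyte probes were called in each comparison, against 2.41% of probes between MRL/lpr and MRL/+, 0.0207% between Fn14ko and MRL/+ and 0.905% between MRL/lpr and Fn14ko. At an unadjusted p under 0.05, limma gave 3, 0 and 1 of the 11, against 23.9%, 8.85% and 8.4% of all probes. The 3 were Cd8b1, Cd79b and Cd3g, and the last was detected in no mouse. The median of the 11 was -1.36, -0.58 and -0.48, beside -0.74, -0.77 and -0.24 over all probes. These medians rest mostly on probes at or near the dark level, so that their direction is not read as a result. Differences of single dim probes against a group at the dark level are not given, since values there have no order.

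**Figure D4:**
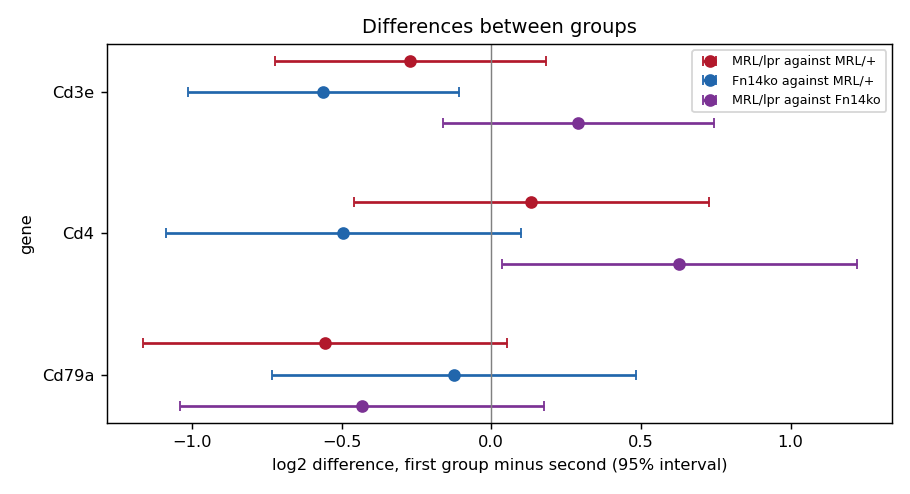
Log2 differences with 95% intervals from limma for the 3 quantified genes, first group minus second. The interval of Cd3e for Fn14ko against MRL/+ lies below 0 and that of Cd4 for MRL/lpr against Fn14ko above it, with adjusted p of 0.171 and 0.239, and the other intervals include 0.

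After removal of the dye means, Pearson's r over the 12 mice was 0.65 between Cd3e and Cd4, 0.30 between Cd3e and Cd79a and -0.25 between Cd4 and Cd79a, as a description without a test, from mice that share arrays and channels. Of 17301 other genes, those closest to Cd79a were Serpina1d (r = 0.95), Ddr2 (0.94), a collagen receptor, and Mfap4 (0.93), a protein of elastic fibres. Closest to Cd3e were the unnamed probe A_55_P2040044 (0.98), Nsmce2 (0.98) and the unnamed probe A_55_P2102759 (0.97), and closest to Cd4 were Rn45s (0.87), the ribosomal RNA precursor, AK082718 (0.86) and the unnamed probe A_55_P2024220 (0.86).

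Other genes of the same cells were taken from lists written with earlier results of these data known. Of 22 T cell genes of the surface and of receptor signalling, 9 were quantified, and between MRL/lpr and MRL/+ 1 of them rose and 1 fell past the limma threshold. Over all genes limma called 14.4% in this comparison, 0.954% between Fn14ko and MRL/+ and 4.57% between MRL/lpr and Fn14ko. Cd6, a surface receptor of T cells, had signals of 1.54, 1.04, 1.34 and 1.91 in MRL/lpr, 0.326, 0.283, 0.313 and 0.261 in Fn14ko and 0.371, 0.601, 0.156 and 0.457 in MRL/+. It was higher in MRL/lpr than in MRL/+ by 2.00 (limma adjusted p = 0.00821) and than in Fn14ko by 2.27 (adjusted p = 0.00713), and the MRL/lpr mice lay above all mice of both groups, as 10.8% of genes did against MRL/+ and 8.91% against Fn14ko. Zap70, the kinase that binds the phosphorylated CD3 chains, was lower in MRL/lpr than in MRL/+ by limma, with a log2 difference of -0.81 (adjusted p = 0.0378) and signals of 0.372, 0.528, 0.446 and 0.414 against 1.01, 0.903, 0.609 and 0.613. Leaving out 1 mouse, MRL/lpr replicate 1 or 4, Fn14ko replicate 2 or any of the 4 MRL/+ mice, ended the call of Zap70 (limma adjusted p up to 0.0975). The median of the 9 genes was -0.81 between MRL/lpr and MRL/+, -0.50 between Fn14ko and MRL/+, and -0.27 between MRL/lpr and Fn14ko. Medians against MRL/+ include its Cy5 mice, where dim genes can read high on the common scale, and are not given for Cy3 mice alone. Between Fn14ko and MRL/+ limma called 0 of the 9. At an unadjusted p under 0.05, limma gave 5, 2 and 2 of the 9 in these 3 comparisons, against 34.7%, 21.9% and 18.6% of all genes. In Cy3 mice alone Cd6 stayed past the threshold in both comparisons and Zap70 did not (-0.94, limma adjusted p = 0.0531).

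Of 21 B cell and plasma cell genes with a probe, 10 were quantified. Jchain, the joining chain that links immunoglobulin units in plasma cells, was the only one called, lower in MRL/lpr than in Fn14ko by limma with a log2 difference of -2.64 (adjusted p = 0.0105). Of all genes 4.57% were called in that comparison. The signals of Jchain were 0.15, 0.268, 0.189 and 0.257 in MRL/lpr, while the Fn14ko mice had 0.443, 1.96, 0.768 and 4.42. With Cy3 mice alone the Jchain difference was -1.79 (limma adjusted p = 0.166), and without MRL/+ replicate 4, a mouse outside this comparison but in the fit, the limma adjusted p was 0.0508. At an unadjusted p under 0.05, limma gave 2 of the 10 genes in MRL/lpr against MRL/+ (34.7% of all genes), 1 in Fn14ko against MRL/+ (21.9%) and 4 in MRL/lpr against Fn14ko (18.6%). In the same order the medians of the 10 genes were -0.87, -0.54 and -0.18, beside -0.10, -0.10 and -0.07 over all genes. Those against MRL/+ again include its Cy5 mice, where dim genes can read high. Among 5 quantified genes of cytotoxic and NK cells limma called 0 in each comparison, with 0 at an unadjusted p under 0.05. Among 9 quantified genes of all leukocytes it also called 0, with 2, 0 and 1 at an unadjusted p under 0.05. Of 12 quantified genes of lymphocyte trafficking, the chemokine Cxcl12 was higher than in MRL/+ in MRL/lpr (1.51, limma adjusted p = 0.000509) and in Fn14ko (0.92, adjusted p = 0.0328), although 1 of its probes alone gave -0.51 and -0.17. Cxcl12 differed by 1.5 and 1.05 in Cy3 mice alone (limma adjusted p = 0.00088 and 0.0219), while the call for Fn14ko was lost without MRL/lpr replicate 1, Fn14ko replicate 2 or 3, or MRL/+ replicate 4 (limma adjusted p = 0.0539 to 0.241). Itga4, the integrin chain that binds VCAM1, was lower in MRL/lpr than in MRL/+ by limma (-0.71, adjusted p = 0.0415), but not with Cy3 mice alone (-0.56, adjusted p = 0.225) and not without MRL/lpr replicate 1, 2 or 4, Fn14ko replicate 2 or 3, or MRL/+ replicate 1 or 4 (adjusted p = 0.0569 to 0.233). In Cy3 mice, 14 and 14 of the 22 T cell genes were detected in MRL/lpr, 12 and 13 in Fn14ko and 12 and 11 in MRL/+. For the 21 B cell genes the counts were 14 and 16, 13 and 14, and 12 and 8.

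The constant regions of the antigen receptors, which lymphocytes transcribe at high level, were read by 27 probes, selected by description after the data were seen, 20 of them for immunoglobulin with the joining chain and 7 for T cell receptor. Detected in all 4 Fn14ko and in 0 of 4 MRL/+ mice were 6 of the 20 and 0 of the 7, and in all 4 MRL/lpr and in 0 of 4 MRL/+ mice 1 of the 20 and 1 of the 7. In all 4 Fn14ko and no MRL/lpr mouse 2 and 1 were detected, and the reverse held for 0 and 1. The shares over all probes are those given above for the surface genes. The kappa constant region was 24.2, 14.9, 51.2 and 17.3 times the background in MRL/lpr, 113, 386, 236 and 747 times in Fn14ko, and 5.50, 0.803, 5.76 and 0.737 times in MRL/+. The groups did not overlap in any pair, with the shares of all probes given for Cd3d and Cd8b1. On the common scale the Ig kappa constant region was higher in Fn14ko than in MRL/+ by 5.14 (limma adjusted p = 0.00601) and lower in MRL/lpr than in Fn14ko by limma (log2 difference -3.57, adjusted p = 0.00829), and the difference of MRL/lpr from MRL/+ was 1.56 (limma adjusted p = 0.116). In Cy3 mice alone the latter was 1.55 and passed the threshold (limma adjusted p = 0.0254), and the first 2 differences were 3.81 and -2.26 (limma adjusted p = 0.00044 and 0.00764). Without MRL/+ replicate 4 neither of these 2 passed (4.92 and -3.57, limma adjusted p = 0.0833 and 0.0602), and without both Cy5 mice of MRL/+ the first was 4.47 (adjusted p = 0.122). A gamma 1 heavy chain probe was 4.23, 2.64, 4.34 and 3.09 times the background in MRL/lpr, 6.43, 17.5, 21.2 and 72.5 times in Fn14ko and 0.683 to 1.35 times in MRL/+. It was detected in 4 of 4, 4 of 4 and 0 of 4 mice and was at least 5.04-fold higher in Fn14ko than in MRL/+ (3.27-fold in Cy3 mice), with an adjusted p of 0.344 in limma's fit of all probes. For MRL/lpr the bound was 1.03-fold over all mice and 1.37-fold in Cy3 mice. The gamma 2B heavy chain was detected in all 4 Fn14ko mice and in no other, at least 3.88-fold higher than in MRL/lpr and 2.03-fold in Cy3 mice (limma adjusted p = 0.0863). In limma's fit of all probes another gamma 1 probe (A_55_P2066173) was lower in MRL/lpr than in Fn14ko (adjusted p = 0.0413). So were the gamma 2C probes A_55_P1956598 and A_55_P2034655 (limma adjusted p = 0.011 and 0.0227), where 0.905% of all probes were called. The gamma 2C probe A_55_P2021084 went the other way and was not called (limma adjusted p = 0.617).

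The T cell receptor beta constant 2 probe was 45.7, 10.3, 39.3 and 11.6 times the background in MRL/lpr, 7.49, 3.78, 23.6 and 10.4 times in Fn14ko, and 2.47, 1.00, 3.22 and 1.11 times in MRL/+. Both lpr groups lay wholly above MRL/+ in brightness, as 4.85% of all probes did for MRL/lpr and 0.743% for Fn14ko. On the common scale the T cell receptor beta constant 2 signal was 1.41, 1.06, 1.20 and 1.16 in MRL/lpr against 0.369, 0.641, 0.175 and 0.869 in MRL/+, a log2 difference of 1.46 (limma adjusted p = 0.0603; exact permutation p = 0.0286). In Cy3 mice alone it was 2.35 (limma adjusted p = 0.00294). The beta constant 1 region, detected in 4 MRL/lpr, 4 Fn14ko and 2 MRL/+ mice, did not follow on this scale. Its groups overlapped, with a log2 difference of 0.20 between MRL/lpr and MRL/+ (limma adjusted p = 0.793). A probe of the T cell receptor gamma constant 1 region was detected in 4 of 4 MRL/lpr mice and in 0 of the other 8, at 7.70, 3.53, 10.3 and 5.46 times the background against 0.969 to 1.18 times. It was at least 2.27-fold higher than in Fn14ko and 1.31-fold higher than in MRL/+, and limma's fit of all probes called neither (adjusted p = 0.709 and 0.966). Another probe of the same region stayed between 0.465 and 1.12 times the background in all mice. The T cell receptor alpha constant region was close to the dark level, between 1.24 and 2.35 times the background. It was detected in each Fn14ko mouse, in no MRL/lpr mouse and in 1 MRL/+ mouse. On the common scale its groups overlapped, with a log2 difference of -1.79 between MRL/lpr and MRL/+ (limma adjusted p = 0.0691). That difference rests on spots close to the dark level. Constant regions of one class resemble each other in sequence, so that single probes may share signal between them.

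**Figure D5:**
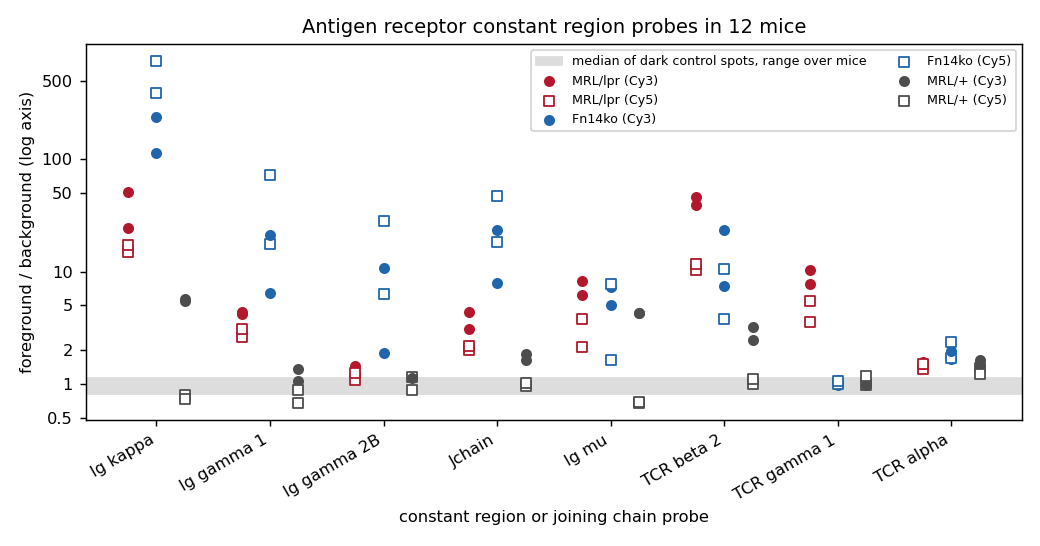
Mean foreground over the software's background (log axis) of 8 antigen receptor constant region and joining chain probes in the 12 mice, filled circles for Cy3, open squares for Cy5, with the range of the median dark control spot in grey. Kappa and gamma 1 are highest in Fn14ko, TCR beta 2 and TCR gamma 1 highest in MRL/lpr, and MRL/+ lies lowest in kappa and TCR beta 2.

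Transcripts of other cells in the dissected tissue moved between the same mice. The summed signal of 7 red blood cell genes was 265 to 766 in MRL/lpr, 98.9 to 256 in Fn14ko and 85.7 to 139 in MRL/+, with 3 of the 7 called higher in MRL/lpr than in MRL/+ by limma. For this and the counts below, 14.4% of all genes were called between MRL/lpr and MRL/+ and 4.57% between MRL/lpr and Fn14ko. For 8 choroid plexus genes the sum was 7.43 to 101 in MRL/lpr, 14.0 to 184 in Fn14ko and 18.1 to 269 in MRL/+, and for 10 genes of meninges and vessel wall 141 to 210, 52.7 to 241 and 88.6 to 152. The 10 cortical neuron genes, which check the labelled tissue, were all detected in each mouse except that 9 were in the Cy5 mice of MRL/+. Between MRL/lpr and MRL/+ limma called 1 of the 10 neuron genes higher, Tbr1 (1.53, adjusted p = 0.00432), and 3 lower, among them Neurod6 (-1.70, adjusted p = 0.0132) and Slc17a7 (-1.08, adjusted p = 0.00926), and Neurod6 was also lower than in Fn14ko (-2.11, adjusted p = 0.00766). Of the choroid plexus genes Clic6 was lower in MRL/lpr than in MRL/+ and Fn14ko by limma (-2.51 and -2.96, adjusted p = 0.0486 and 0.0494). Of 4 genes listed for dendritic cells only Siglech was called, higher in MRL/lpr (1.08 and 2.16, limma adjusted p = 0.0263 and 0.00141). The medians of the 4 were -0.32 and 0.04, and Flt3 differed by 0.10 and 0.22. Of 14 quantified microglia and macrophage genes, 1 was called between MRL/lpr and MRL/+, Aif1 (1.17, limma adjusted p = 0.0271). The part of blood, choroid plexus, meninges and cortical neurons in the lymphocyte signals was not tested.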

How the data were processed

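The authors extracted total RNA from cortex, labelled it with Cy3 or Cy5 and hybridized it to Agilent arrays. Per the file headers, Agilent Feature Extraction measured each spot. The deposited files hold, for each channel, a mean spot intensity and a median intensity of the area around the spot (the local background), the software's own background and processed signal, and its quality marks, which are flags with score 0 or 1. Spots marked as uneven or as outliers (1952 of 43020 non-control spots) and, for the gene fit, spots whose mean was less than 2 times that of the surrounding area in at least 1 of the 12 samples (17781) were excluded, leaving 24255 spots of 17302 genes. Intensities were corrected by normexp in limma 3.58.1 (R 4.3.3; figures with matplotlib 3.10.9) with an offset of 50, divided by the channel median and averaged over the spots of a gene or probe. Log2 values were fitted with dye as a term, the array as a random block and a trend in mean signal, with 2-sided tests and Benjamini-Hochberg adjustment over all genes (or all 38661 probes) at 0.05. Single values were tested by the 70 splits of 8 mice. The same fit was tested on simulated data. Members, marker lists and alternatives were chosen with earlier results of these data known. Named are all members, up to 3 called genes of a list, and the 3 genes most like each quantified member. Each mouse is a separate animal. With 6 arrays the typical standard error of a log2 difference was 0.25 for genes and 0.53 for probes (medians). Equal replicate numbers share a dye, and with dye means removed the deviations of equal numbers correlated between -0.28 and 0.48, so they do not pair the mice. No spot was saturated.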

Additional observations from a re-analysis of the deposited data

Results flagged for a closer look

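In Fn14ko, the brightness of Cd8b1 over the software's background was 6.46 times in replicate 1 against 3.86, 4.00 and 4.16 times in the others. The gap of replicate 1 to the next mouse took up 0.855 of the range of the group on the log2 scale, above Dixon's 95% critical value for 4 samples. It was the only such case among 72 groups of 4 values, where chance gives about 1 in 20. The other 3 Fn14ko mice alone also lay above all MRL/lpr mice.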

How the results depend on the processing

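No lymphocyte gene was called between MRL/lpr and MRL/+ under any of 36 alternative settings. Between Fn14ko and MRL/+ the count of called genes was 1 (Cd3e) with the local background subtracted, with it capped and with the background of the scanner software, an alternative added after the data were seen. Between MRL/lpr and Fn14ko it was 1 (Cd4) by the methods' t-test without adjustment. With 1 mouse left out these counts ranged from 0 to 0, 0 to 1 and 0 to 0 over the 3 comparisons. Counts of called probes between MRL/lpr and MRL/+ were 1 with the software's processed signal, 1 with the cap, 1 without the array block, 1 with the software's background and 2 by the unadjusted t-test. For Fn14ko against MRL/+ they were 1 with the processed signal, 2 with the cap and 2 with the software's background. For MRL/lpr against Fn14ko they were 1 with the processed signal, 1 with loess and Aquantile, 1 with the cap, 1 with the software's background and 2 by the t-test. For these settings the share of all genes or probes called is not given. The counts are therefore not read as a result about the lymphocyte genes. With 1 mouse left out the counts of called probes ranged from 0 to 8, 0 to 0 and 0 to 0, the 8 without MRL/+ replicate 3, a fit that called 49.0% of all probes. The replicate block, with a number that stands for dye and not for paired mice, gave 8, 0 and 1 called probes (of all probes 49.4%, 0.716% and 3.04%), and 0 called genes in each comparison. The mean share of detected probes was 65.9%, 79.5% and 43.2% in MRL/lpr, Fn14ko and MRL/+ with the software's mark for positive and significant signal, and 68.2%, 77.3% and 68.2% for a foreground of at least 2 times the local background. By both measures the mice of MRL/lpr and Fn14ko overlapped.

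Signs turned mostly in comparisons with MRL/+. Without a filter on dim spots, Cd3e was 0.33 for MRL/lpr and 0.16 for Fn14ko, and in Fn14ko Cd4 was 0.048 and Cd79a 0.36. With the processed signal, MRL/lpr gave 0.19 for Cd3e, -0.35 for Cd4 and 0.73 for Cd79a, and Fn14ko gave 1.00 for Cd79a and 0.93 for Cd8b1. Cd4 in MRL/lpr was -0.013 with subtraction, -0.068 with spots well above background in all mice, -0.26 with loess and Aquantile, -0.10 with the 75th percentile, -0.056 with the cap, -0.053 with the software's background, -0.0024 without MRL/+ mice 3 and 4, and -0.0042 to 0.35 with 1 mouse left out. Cd79a in Fn14ko was 0.040 with subtraction, 0.43 with loess, 0.072 with the cap, 0.059 with the software's background, 0.051 without MRL/+ mice 1 and 2, and -0.28 to 0.024 with 1 mouse left out. Cd8b1 in Fn14ko, at -0.03, was 0.91 with loess, 0.31 with the cap and with the software's background, 0.40 without Fn14ko mice 3 and 4, 0.54 without MRL/+ mice 1 and 2, 0.10 in Cy3 mice, 0.51 in Cy3 mice with the software's background, 0.016 without the Cy5 mice of MRL/+, 0.69 with the median of all spots, and -0.28 to 0.19 with 1 mouse left out. The causes were not tested. Of 601 values under other alternatives, 491 kept direction and side of the threshold, as did 278 of 312 with 1 mouse left out. A single Cxcl12 probe gave -0.51 and -0.17.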

Other observations

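Within MRL/lpr, some immunoglobulin heavy chain probes differed between the 2 arrays of the group, replicates 1 and 2 on one and 3 and 4 on the other. Others did not, such as the gamma 1 probe given above, at 4.23, 2.64, 4.34 and 3.09 times the software's background. A gamma 2C heavy chain probe (A_55_P2021084) was 1.93, 1.44, 61.0 and 65.2 times the software's background in the 4 MRL/lpr mice and 1.10 to 1.53 times in the other 8. The other gamma 2C probes were brightest in Fn14ko. A_55_P2034655 was 16.6, 59.6, 47.4 and 287 times in Fn14ko against 4.11, 2.05, 4.00 and 2.28 times in MRL/lpr. A_55_P1956598 was 12.6, 22.9, 54.4 and 135 times against 2.57, 1.42, 2.41 and 1.72 times. An alpha heavy chain probe (A_55_P1960148) was 6.30, 3.94, 75.6 and 82.2 times in MRL/lpr, 16.9, 88.8, 42.3 and 139 times in Fn14ko, and 1.98, 0.899, 2.90 and 0.865 times in MRL/+. The high MRL/lpr mice were replicates 3 and 4, which were read on the same array in different dyes. Another alpha probe (A_51_P509679) was high in replicate 3 alone, at 58.7 times against 5.26 to 13.4 times in the other MRL/lpr mice. A delta chain probe of the T cell receptor (A_52_P80787) was 4.56, 2.00, 0.96 and 0.844 times in MRL/lpr, higher in the mice of the other MRL/lpr array, and 0.492 to 0.966 times in the other 8 mice. Whether these values follow the mice or the arrays was not tested.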
